A study of Rattus norvegicus with 18 samples.

Results

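Fos, Jun, Egr1 and Atf3 are immediate early genes, a class that cells switch on within a short time of a stimulus without first making new protein. They were read here as 4 of the 27654 genes in a table of read counts from rat pancreatic beta cells. The 4 genes were taken by name and not by a rule on their values, though earlier results of these data were known. Their Ensembl rat IDs are ENSRNOG00000008015 for Fos, ENSRNOG00000026293 for Jun, ENSRNOG00000019422 for Egr1 and ENSRNOG00000003745 for Atf3. All 4 passed the filter on low counts, which left 14920 genes to test.

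The study set replicating beta cells against quiescent ones at both ages, old and young. Islets were kept overnight in RPMI1640 holding 11.1 mM glucose and 10% FBS, and received 10 micromolar EdU, a thymidine analogue that marks cells that have made new DNA. Cells were then sorted, lysed with proteinase K in the buffer of a kit for fixed tissue, and sequenced with a stranded total RNA kit. There were 4 old replicative, 4 old quiescent, 5 young replicative and 5 young quiescent libraries, and all 4 groups shared this culture and EdU exposure. The series text describes 9 islet batches, each from 2 rats and each giving a replicating and a quiescent sample, so a library stands for a pool of 2 rats. The strain, the sex, the ages in weeks, the sorting gate, the number of cells and the time between culture and lysis are not stated in the labels or the series text. The labels call the material pancreatic islets and the series text calls the cells beta cells. The files hold no gene names, so the cell type could not be checked against marker genes.

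Fos and Jun belong to the AP-1 family: their proteins pair through leucine zippers and bind DNA together, and both are rapid readouts of growth factor, calcium and stress signalling. Egr1 is a zinc finger transcription factor on the same fast pathway, driven largely by ERK signalling and serum response factor, and in beta cells it is induced by glucose and membrane depolarisation. Atf3 is a basic leucine zipper factor of the ATF family, induced by many kinds of cell stress, and it can form dimers with Jun. All of these transcripts are short lived, and tissue dissociation is known to induce them.

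Total counts ran from 2975086 to 8639541 in old replicative, from 4639863 to 10365264 in old quiescent, from 5439091 to 8242896 in young replicative and from 2723660 to 14222719 in young quiescent libraries. Old replicative libraries were the least alike: the mean Spearman correlation of a library with the others of its group was 0.667 to 0.755 there, against 0.967 to 0.974 in old quiescent, 0.842 to 0.918 in young replicative and 0.943 to 0.968 in young quiescent libraries. Old replicative replicate 3, with 0.667, and young replicative replicate 5, with 0.842, stood furthest from their groups, and values without them are given where they matter. Levels below are CPM (reads of a gene scaled to a common library total) on library sizes scaled by TMM factors, which balance libraries for differing RNA make-up. They were not divided by gene length, so they compare a gene between libraries and not one gene with another. In sorted bulk RNA, fewer cells that express a gene and less RNA per cell cannot be told apart.

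Jun had the clearest difference with age. In old replicative libraries it stood at 241, 344, 555 and 392 CPM in replicates 1 to 4, and in old quiescent libraries at 157, 189, 287 and 266 CPM. In young replicative libraries it stood at 109, 69.8, 130.0, 89.5 and 165 CPM in replicates 1 to 5, and in young quiescent libraries at 78.5, 60.0, 129, 123 and 109 CPM. Every old replicative library lay above every young replicative one, and every old quiescent library lay above every young quiescent one. The group mean was highest in old replicative (383 ± 131 CPM, SD, n = 4) and next in old quiescent libraries (225 ± 61.8, SD, n = 4). Young replicative (113 ± 36.9, SD, n = 5) and young quiescent libraries (99.8 ± 29.6, SD, n = 5) followed in that order. Each group overlapped the next in this order of means. The lowest old replicative value, 241 CPM, lay below the old quiescent values of 287 and 266 CPM. The lowest old quiescent value, 157 CPM, lay below the highest young replicative one, 165 CPM. Young replicative replicate 5, which held that highest value, lay above every young quiescent library.

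Fos ran in another order. In old replicative libraries it stood at 136, 184, 291 and 296 CPM, and in old quiescent libraries at 154, 189, 350 and 358 CPM. Young replicative libraries held 55.9, 86.7, 129, 147 and 39.4 CPM, and young quiescent libraries held 89.4, 128, 215, 197 and 171 CPM. In CPM each replicative library lay below the quiescent library of the same number, in 4 of 4 old and 5 of 5 young pairs. The groups as a whole overlapped. The gap was narrowest in old replicate 2, at 184 against 189 CPM. The means were 227 ± 79.5 CPM in old replicative and 263 ± 106 CPM in old quiescent libraries (SD, n = 4 each), and 91.7 ± 46.2 CPM in young replicative and 160.0 ± 51.1 CPM in young quiescent libraries (SD, n = 5 each).

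Egr1 stood at 474, 951, 704 and 1101 CPM in old replicative libraries and at 354, 460, 632 and 722 CPM in old quiescent libraries. Young replicative libraries held 237, 335, 506, 471 and 473 CPM, and young quiescent libraries held 164, 278, 607, 487 and 595 CPM. Old replicative libraries held the 2 highest values of the series, in replicates 4 and 2, but the group overlapped each of the others. Its means were 807 ± 276 CPM in old replicative and 542 ± 166 CPM in old quiescent libraries (SD, n = 4 each), and 404 ± 115 CPM in young replicative and 426 ± 197 CPM in young quiescent libraries (SD, n = 5 each).

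Atf3 was counted far less deeply, from 8 to 308 reads a library. It stood at 25.3, 32.2, 37.02 and 37.5 CPM in old replicative libraries and at 13.6, 17.2, 23.8 and 21.8 CPM in old quiescent libraries, with no overlap. In young replicative libraries it stood at 21.4, 8.84, 18.4, 18.7 and 1.52 CPM, and in young quiescent libraries at 23.9, 9.09, 15.5, 20.4 and 29.4 CPM. The lowest value, in young replicative replicate 5, rests on 8 reads, and the highest young quiescent value is in the library of the same number. The means were 33.0 ± 5.66 CPM in old replicative and 19.1 ± 4.58 CPM in old quiescent libraries (SD, n = 4 each), and 13.8 ± 8.35 CPM in young replicative and 19.6 ± 7.76 CPM in young quiescent libraries (SD, n = 5 each).

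**Figure D1:**
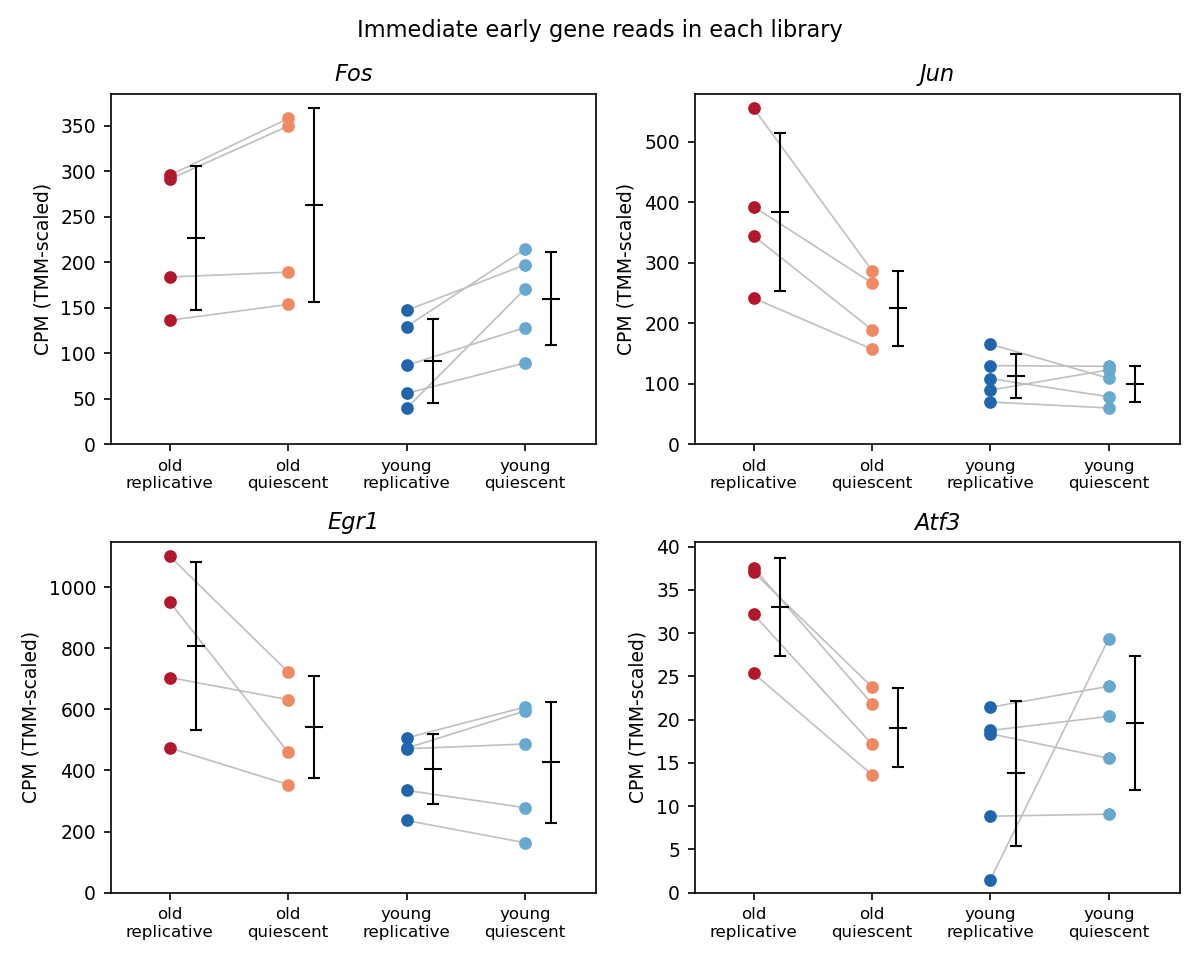
CPM of Fos, Jun, Egr1 and Atf3 in each library (vertical axes, from 0) by group (horizontal axes); points are libraries, grey lines join the replicative and the quiescent library of the same number, and black marks give the mean ± SD (n = 4 per old group, 5 per young group). All old libraries lie above the young ones of the same status for Jun, and every Fos line runs upward from the replicative to the quiescent library.

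The authors' deposited log2 values of size-factor-normalized counts gave the same order of groups for Jun. They averaged 11.25 ± 0.53 in old replicative, 10.37 ± 0.38 in old quiescent (SD, n = 4 each), 9.46 ± 0.47 in young replicative and 9.26 ± 0.40 in young quiescent libraries (SD, n = 5 each). For Fos they averaged 10.48 ± 0.56, 10.54 ± 0.59, 9.06 ± 0.80 and 9.93 ± 0.42 in the same groups. On this scale too, the old quiescent mean of Fos was the highest and its young replicative mean the lowest. In old replicate 2, however, Fos stood at 10.23 in the replicative and 10.18 in the quiescent library. The order within that pair thus depends on the scaling.

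Of the 4 genes, Egr1 is the one whose promoter sequence was at hand, from RefSeq on the rat build GRCr8. It is shown because the known serum response and cyclic AMP inputs of the gene act through short motifs near its start. The 250 bases before its start site lie at chr18:26736828-26737077 on the plus strand. Capitals mark each CArG box (the serum response factor motif, 2 matches) and each TGACGT (the core of the cyclic AMP response element, 2 matches). Both TGACGT matches lie on the minus strand, so the plus strand printed here shows them as ACGTCA.
Egr1 promoter: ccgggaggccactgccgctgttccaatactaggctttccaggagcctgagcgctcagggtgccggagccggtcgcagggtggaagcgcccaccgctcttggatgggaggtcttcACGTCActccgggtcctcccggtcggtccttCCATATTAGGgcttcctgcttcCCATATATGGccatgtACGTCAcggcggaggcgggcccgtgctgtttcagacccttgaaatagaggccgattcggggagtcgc
Both strands were searched. The CArG boxes begin at positions -105 and -83 from the start site and the TGACGT matches at -136 and -67, and no match overlaps another. A CArG box was found in 1.497% of 33469 rat promoter windows of the same length, and TGACGT in 6.95%. The full palindrome TGACGTCA, the AP-1 motif TGANTCA and the EGR motif GCGGGGGCG are in 1.59%, 6.34% and 2.45% of those windows and had 0 matches in this one. A match is a run of letters, not a measured binding site.

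Replicating cells of old islets were set against quiescent cells of the same age. Jun, Egr1 and Atf3 had higher means in old replicative than in old quiescent libraries, by 1.70-, 1.49- and 1.73-fold in the fit, and each was higher in 4 of 4 same-numbered pairs. Fos had a fitted ratio of 0.863 and was lower in 4 of 4 pairs in CPM, though not in replicate 2 on the deposited scale. None of the 4 passed edgeR's quasi-likelihood test with Benjamini-Hochberg adjustment over all genes, a test that 13.8% of all genes passed. Jun alone had an unadjusted p under 0.05 in that model, as 27.6% of all genes did. DESeq2, which called 19.9% of the genes it tested, called 1 of the 4 (Jun), and limma-voom called 0.

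The log2 fold change of Jun was 0.77 (SE 0.30, 95% interval 0.14 to 1.39, edgeR adjusted p = 0.0937). Same-numbered libraries deviated together from their group means, so the number was also fitted as a block. With that replicate block the value was 0.75 and passed the test (edgeR adjusted p = 0.0184), as 13.1% of all genes did in that fit. It also passed with RLE factors at 0.92 (edgeR adjusted p = 0.0394), with DESeq2 at 0.92 (adjusted p = 0.0397) and without old replicative replicate 1 at 0.91 (edgeR adjusted p = 0.0420). Without old replicative replicate 3 it was 0.52 (edgeR adjusted p = 0.246). The adjusted p ranged from 0.0184 to 0.582 over the 7 other settings.

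Egr1 had a log2 fold change of 0.58 (SE 0.35, 95% interval -0.15 to 1.30, edgeR adjusted p = 0.302) in old cells. With the replicate block it was 0.56 and just passed (edgeR adjusted p = 0.0473). The differences within old pairs ran from 0.16 to 1.05 on the log2 scale, the smallest in replicate 3. Atf3 had a value of 0.79 (SE 0.59, 95% interval -0.43 to 2.01, edgeR adjusted p = 0.416). Its 4 pair differences were close together, from 0.63 to 0.90, yet the model's error, shared with the young libraries, is wide, and the blocked fit did not call it either (0.81, edgeR adjusted p = 0.464). The groups did not overlap for Atf3, as for 16.5% of all genes tested and 5.42% in that direction. Fos had a value of -0.21 (SE 0.38, 95% interval -0.996 to 0.57, edgeR adjusted p = 0.770), and its pair differences ran from -0.28 to -0.04. Genes higher in all 4 old pairs made up 8.83% of those tested, and genes lower in all 4 made up 19.1%.

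In young islets Fos was the member with the largest value between replicating and quiescent cells. It stood at 0.573 of the quiescent level in the fit, a log2 fold change of -0.80 (SE 0.34, 95% interval -1.51 to -0.10, edgeR adjusted p = 0.439). None of the 4 was called in this comparison, where 2.47% of all genes were. Fos alone had an unadjusted p under 0.05, against 8.59% of all genes. DESeq2 called 0 of the 4 and limma-voom called 1, Fos, at -0.84 (adjusted p = 0.0389). limma-voom called 19.8% of all genes in this comparison, so 1 of 4 is near its own share. With the replicate block Fos was -0.89 and passed the test (edgeR adjusted p = 0.0343), as 2.68% of all genes did in that fit. The 5 pair differences were -0.67, -0.56, -0.73, -0.42 and -2.11 on the log2 scale, the last in replicate 5. Without young replicative replicate 5 the fitted value was -0.61 (edgeR adjusted p = 0.693). Genes lower in all 5 young pairs made up 11.3% of those tested. Genes lower in all 9 pairs of both ages, as Fos was in CPM but not on the deposited scale, made up 5.13%.

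The other 3 members had young values near 0 or with wide intervals. Jun had a log2 fold change of 0.17 (SE 0.27, 95% interval -0.39 to 0.73, edgeR adjusted p = 1.00) and was higher in 4 of 5 pairs, but at -0.01 without young replicative replicate 5. Egr1 had a value of -0.08 (SE 0.31, 95% interval -0.72 to 0.57, edgeR adjusted p = 1.00), with 2 pairs higher and 3 lower, and its sign turned with the replicate block (0.030). Without young quiescent replicate 3, young quiescent replicate 5 or young replicative replicate 1, Egr1 stood at 0.088, 0.08 and 0.07. Atf3 had a value of -0.51 (SE 0.52, 95% interval -1.60 to 0.57, edgeR adjusted p = 0.999). Its pair difference was -4.04 in replicate 5 and between -0.15 and 0.24 in the other pairs, and without young replicative replicate 5 the fitted value was -0.23 (edgeR adjusted p = 1.00).

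The reads of Jun relative to those of Fos separate the states of old cells without any scaling of libraries, since both counts come from the same library. Jun had 1.77, 1.87, 1.90 and 1.33 reads per Fos read in old replicative libraries, and 1.02, 0.999, 0.821 and 0.744 in old quiescent libraries. The groups did not overlap, and the replicative library was the higher one in each pair. Among the other 14919 genes tested, 3.7% had a ratio to Fos that was higher in every old replicative than in every old quiescent library. Atf3 was among these genes too. It had 0.127 to 0.186 reads per Fos read in old replicative and 0.061 to 0.0906 in old quiescent libraries. In young replicative libraries the ratio of Jun to Fos was 1.94, 0.805, 1.00, 0.609 and 4.19. In young quiescent libraries it was 0.878, 0.467, 0.6002, 0.623 and 0.639. It was higher in the replicative library of 4 of 5 young pairs, and replicate 4, at 0.609 against 0.623, was the exception. The mean log2 difference of the ratio, replicative minus quiescent, was 0.94 in old and 1.07 in young islets, and 0.65 in young islets without young replicative replicate 5. These ratios were chosen after the levels were seen and carry no test.

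Egr1 reads per Fos read ran from 2.42 to 5.17 in old replicative and from 1.81 to 2.43 in old quiescent libraries, so the groups overlapped narrowly, with old replicative replicate 3 below old quiescent replicate 2. In young islets they ran from 3.20 to 12.0 in replicative and from 1.83 to 3.49 in quiescent libraries. Within every same-numbered pair of both ages the replicative library had the higher ratio of Egr1 to Fos. The share of all genes for which this holds was not computed. The value of 12.0 belongs to young replicative replicate 5, the library with the lowest Fos and Atf3 levels of its group.

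**Figure D2:**
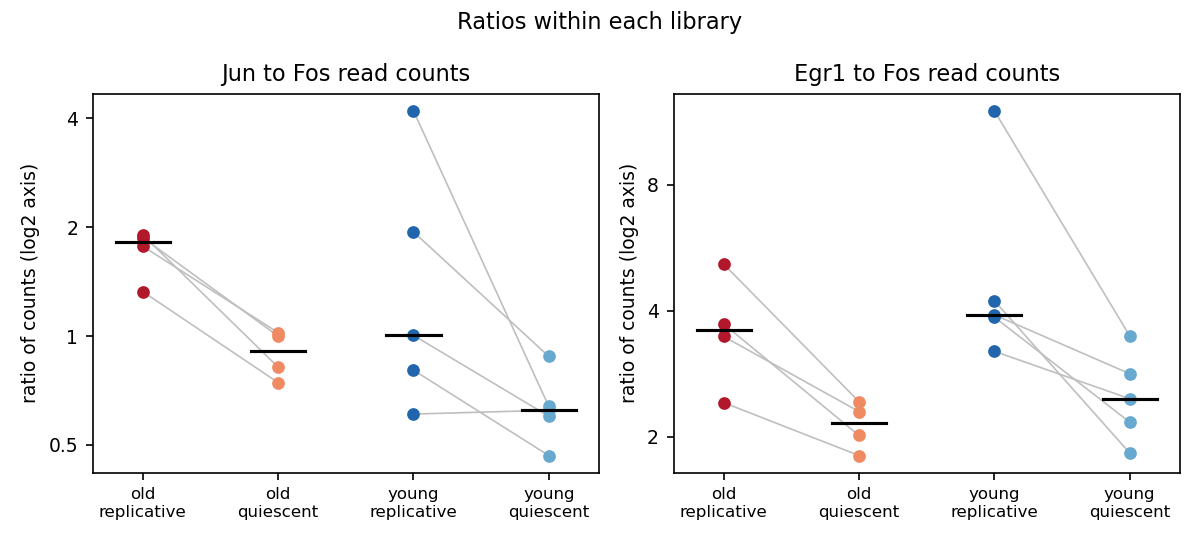
Reads of Jun (left) and of Egr1 (right) per read of Fos in each library, on log2 axes, by group; points are libraries, grey lines join libraries of the same number and black bars are group medians (n = 4 per old group, 5 per young group). For Jun the old replicative libraries, at 1.33 or more, lie above the old quiescent ones, at 1.02 or less; young replicative replicate 5 is the top point of both panels.

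Old replicating cells were then set against young replicating cells. All 4 genes had higher means in old replicative libraries, and Jun and Fos passed the test. Fewer genes had any read in old replicative libraries (17772, 15215, 11859 and 13310) than in young replicative replicates 1 to 3 (23683, 21315 and 22394), while young replicative replicates 4 and 5 (15462 and 14759) lay within the old range. Old quiescent libraries had reads for 17448 to 19882 genes and young quiescent ones for 19054 to 23879. The part of this difference in the results was not tested. Calls were made for 7.16% of all genes in this comparison, 491 higher and 578 lower in old cells, or 373 higher and 813 lower with upper-quartile factors. Genes called higher made up 3.29%. All 4 members had an unadjusted p under 0.05, as 22.4% of all genes did, 10.2% with a value above 0. DESeq2, which called 14.8% of the genes it tested, called 3 of the 4 (Jun, Fos and Egr1). limma-voom, which called 1.55%, called 0. Jun rose 3.402-fold (log2 fold change 1.77, SE 0.29, 95% interval 1.17 to 2.36, edgeR adjusted p = 0.00232) and ranked 19 by p among the 14920 genes. The groups did not overlap for Jun, as for 6.37% of all genes and 2.43% in that direction. Its value lay between 1.54 and 1.95 and stayed past the threshold whichever library was left out. It was lost with limma-voom with quality weights, at 1.61 (adjusted p = 0.131), and kept in the other 6 settings.

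Fos rose 2.47-fold in old replicative cells (log2 fold change 1.31, SE 0.36, 95% interval 0.56 to 2.05, edgeR adjusted p = 0.0301), although the lowest old replicative library, at 136 CPM, was below the highest young one, at 147 CPM. The call was lost without any of 5 libraries. The value was 1.16 without old replicative replicate 3, 1.12 without old replicative replicate 4, 1.15 without young replicative replicate 1, 1.27 without young replicative replicate 2 and 1.11 without young replicative replicate 5 (edgeR adjusted p = 0.0611, 0.0635, 0.0700, 0.0662 and 0.0628). It was also lost in the fit of these 9 libraries alone, at 1.32 (edgeR adjusted p = 0.172), and with limma-voom, at 1.00 (adjusted p = 0.540). The direction was the same in each of these fits.

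Egr1 had a log2 fold change of 1.00 (SE 0.33, 95% interval 0.32 to 1.68, edgeR adjusted p = 0.0663) between old and young replicating cells. It passed with the replicate block at 1.00 (limma adjusted p = 0.0354), with RLE factors at 1.02 (edgeR adjusted p = 0.0446) and with DESeq2 at 1.02 (adjusted p = 0.0432), settings that called 11.6%, 7.21% and 14.8% of the genes they tested. It also passed without old replicative replicate 1 at 1.18 and without young quiescent replicate 1 at 1.00 (edgeR adjusted p = 0.0264 and 0.0371). Egr1 did not pass with upper-quartile factors, no filter or the 2 groups alone, at 0.86, 1.03 and 1.01 (edgeR adjusted p = 0.0802, 0.112 and 0.136). Nor did it pass with limma-voom, at 0.93 (adjusted p = 0.564). With a library left out the edgeR adjusted p reached 0.143. Atf3 had a value of 1.26 (SE 0.55, 95% interval 0.11 to 2.40, edgeR adjusted p = 0.176) and was not called in any setting, with 0.97 without young replicative replicate 5. Its groups did not overlap, which again held for 6.37% of all genes and for 2.43% in that direction.

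**Figure D3:**
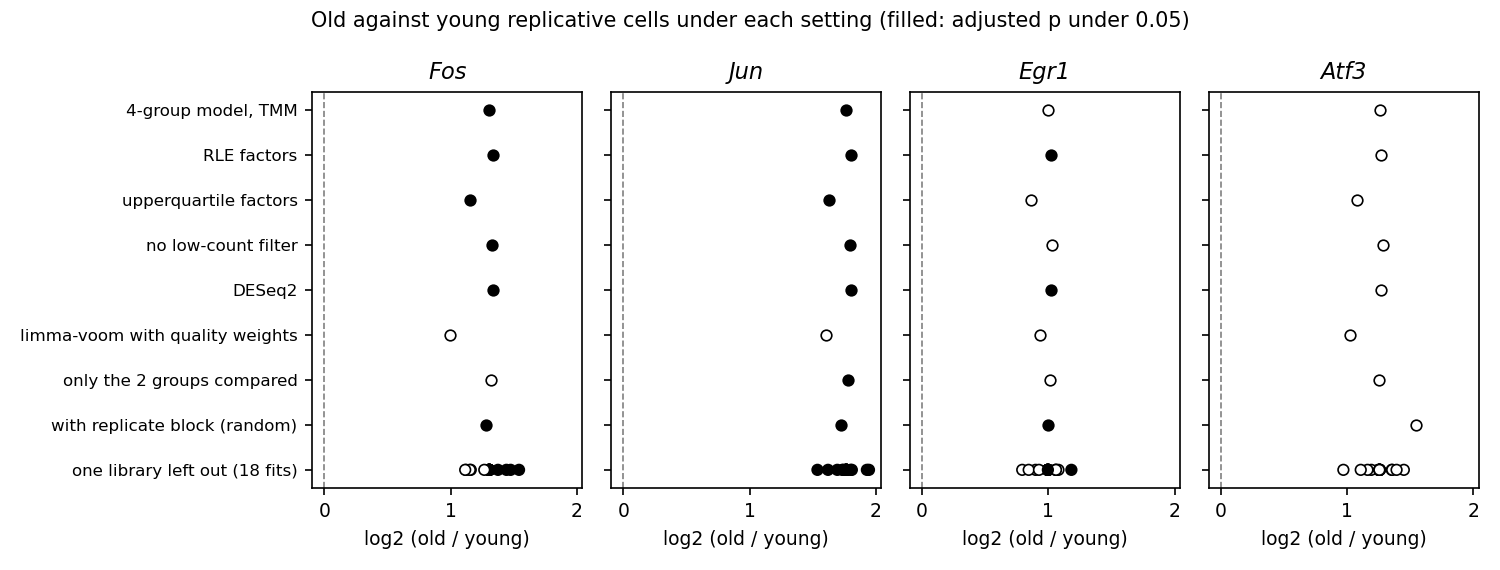
Log2 ratio of old to young replicative cells (horizontal axes) for Fos, Jun, Egr1 and Atf3 under the 4-group model, 7 other settings and 18 fits that each leave out a library (rows); filled points have an adjusted p under 0.05. Every point lies right of 0; Jun is open only with limma-voom, and Atf3 is open throughout.

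Among quiescent cells Jun again had the largest age difference of the 4 genes. Each gene's fitted value was smaller than among replicating cells, a gap that equals the interaction and did not pass its test. Jun was 2.25-fold higher in old quiescent cells in the fit (log2 fold change 1.17, SE 0.28, 95% interval 0.58 to 1.76), with an unadjusted p of 0.000443, rank 31 of 14920, and an edgeR adjusted p of 0.213. None of the 4 was called, against 0.0268% of all genes. Jun alone had an unadjusted p under 0.05, against 4.91% of all genes. DESeq2 called 0 of the 4, and limma-voom, which called 10.7% of all genes here, called 1, Jun, at 1.17 (adjusted p = 0.000769). Jun was also called in the fit of the 9 quiescent libraries alone, at 1.14 (edgeR adjusted p = 0.0266), which called 2.01% of the genes it tested. Groups that do not overlap, as those of Jun, were found for 6.07% of all genes and 2.63% in that direction.

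Fos had a value of 0.71 between old and young quiescent cells (SE 0.36, 95% interval -0.03 to 1.45, edgeR adjusted p = 1.00). Egr1 had 0.35 (SE 0.33, 95% interval -0.34 to 1.03, edgeR adjusted p = 1.00). Atf3 had -0.05 (SE 0.56, 95% interval -1.20 to 1.10, edgeR adjusted p = 1.00), so old quiescent levels over 2-fold above and over 2-fold below the young ones both lie within its interval.

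**Figure D4:**
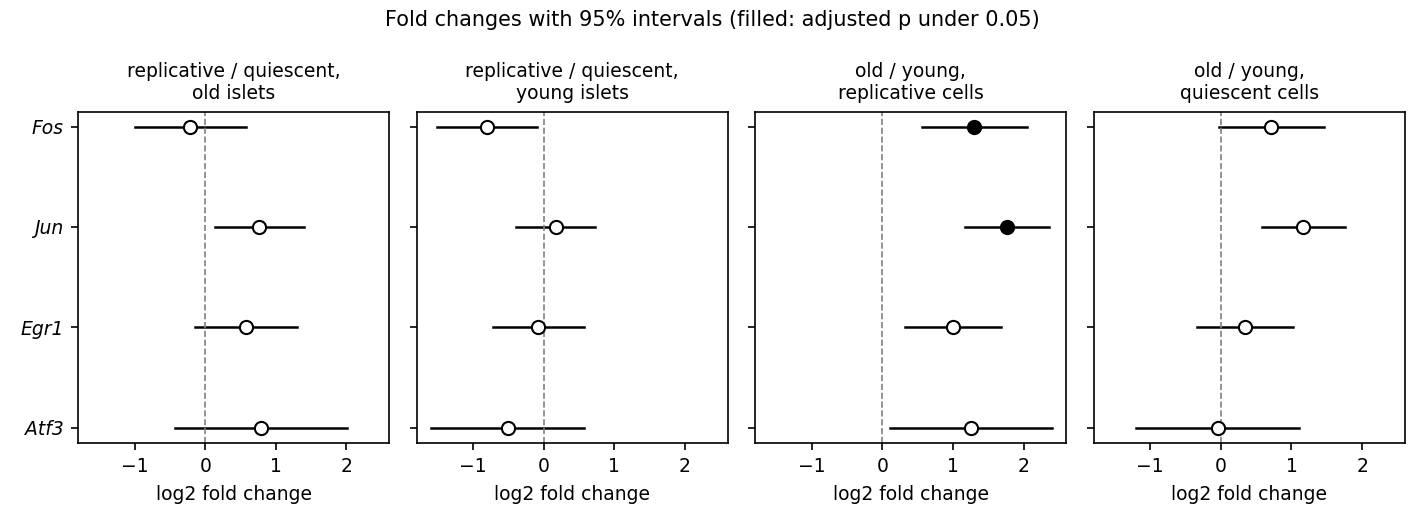
Fitted log2 fold changes (horizontal axes) of Fos, Jun, Egr1 and Atf3 in the 4 comparisons of 2 groups, with 95% intervals from edgeR's quasi-likelihood fit; filled points have an adjusted p under 0.05. The filled points are Fos at 1.31 and Jun at 1.77, in old against young replicative cells.

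Whether the replication difference itself changed with age was tested by the interaction, the old fold change minus the young one. It was above 0 in all 4 genes: 0.59 for Fos (SE 0.51, 95% interval -0.46 to 1.64), 0.60 for Jun (SE 0.40, 95% interval -0.24 to 1.43), 0.65 for Egr1 (SE 0.47, 95% interval -0.32 to 1.62) and 1.30 for Atf3 (SE 0.79, 95% interval -0.33 to 2.93). None passed the edgeR test (adjusted p = 0.631 to 0.778), where 0.0268% of all genes did, and 0 of the 4 had an unadjusted p under 0.05, against 10.1% of all genes. DESeq2 and limma-voom called 0 as well. The 4 values share the same 18 libraries, and the median over all genes was -0.02. With the replicate block 3 of the 4, Fos, Jun and Egr1, had an unadjusted p under 0.05 and none passed after adjustment (0.70, 0.58 and 0.53, edgeR adjusted p = 0.431, 0.420 and 0.421). In that blocked fit 11.2% of all genes had an unadjusted p under 0.05, 2.98% with a value above 0, and the median over all genes was -0.36. The intervals allow no difference between ages and also a difference of over 2-fold.

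With all libraries kept, Fos, Jun and Egr1 had a wide spread between the libraries of either quiescent group. Young replicative libraries, given further below, had a wide spread too. In old quiescent libraries the SD of log2 CPM was 0.62 for Fos, 0.41 for Jun and 0.46 for Egr1, where genes within 0.5 of their average log2 CPM had medians of 0.19, 0.20 and 0.22. Fos varied more there than 95.7% of such genes, Jun more than 88.1% and Egr1 more than 83.8%. In young quiescent libraries the SDs were 0.51, 0.47 and 0.82, above 91.3%, 87.98% and 96.2% of genes of like abundance. Without young quiescent replicate 1 those of Fos and Egr1 were 0.33 and 0.52, above 74.3% and 89.7%. Without young quiescent replicate 2 that of Jun was 0.32, above 50.1%. Atf3 had SDs of 0.36 in old and 0.64 in young quiescent libraries, above 64.2% and 89.7%. Without young quiescent replicate 2 the young value of Atf3 was 0.38, above 63.0%. Without old quiescent replicate 1 its old value was 0.24, above 46.6%.

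In old replicative libraries, whose genes vary widely as a whole, these 4 did not stand out upward with all libraries kept. The SDs of Fos, Jun and Egr1 were 0.54, 0.50 and 0.54, above 49.5%, 43.9% and 67.03% of genes of like abundance. Atf3 had an SD of 0.26 there, against a median of 1.77 for the 2389 genes near its level, and only 0.837% of those varied less. In young replicative libraries Jun and Egr1 had SDs of 0.48 and 0.46, above 83.9% and 84.3%. That of Jun without replicate 2 was 0.38, above 59.7%, and that of Egr1 without replicate 1 was 0.27, above 53.3%. Fos had an SD of 0.80 there, above 97.7%, and Atf3 one of 1.502, above 88.5%. Without replicate 5, which rests on 8 reads, the SD of Atf3 was 0.57, above 64.7%. Without old replicative replicate 1 the SDs of Egr1 and Atf3 there were 0.33 and 0.12, above 36.4% and 0.335%. Without old replicative replicate 3 the SDs of Fos, Jun, Egr1 and Atf3 were 0.56, 0.36, 0.65 and 0.28. They lay above 65.8%, 39.2%, 83.2% and 6.28% of genes of like abundance, and the median near the level of Atf3 was then 1.06. These percentages describe the libraries and carry no test.

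**Figure D5:**
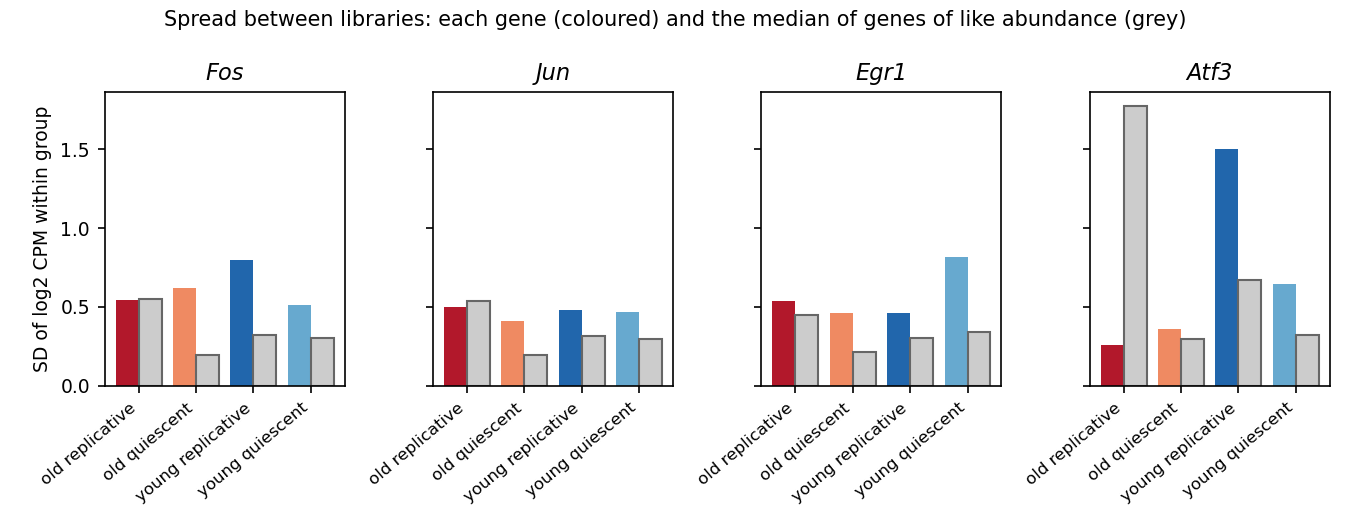
SD of log2 CPM between the libraries of a group (vertical axis, from 0) for each of the 4 genes (coloured bars) and the median of genes within 0.5 of its average log2 CPM (grey bars), by group (n = 4 per old group, 5 per young group). The coloured bar is taller than the grey one in both quiescent groups and in young replicative libraries for every gene. For Atf3 in old replicative libraries the coloured bar is far shorter, 0.26 against 1.77.

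Which libraries were high differed between pairs of genes. In old quiescent libraries replicates 3 and 4 held the 2 highest values of all 4 genes. In old replicative libraries the same numbers held the 2 highest values of Fos, Jun and Atf3, and replicates 4 and 2 those of Egr1. Young replicative replicate 5 was lowest of its group for Fos and Atf3, highest for Jun and second highest for Egr1. Young quiescent replicate 1 was lowest for Fos and Egr1 and second highest for Atf3. Over the 18 libraries, the deviations of log2 CPM from the group means had a Pearson r of 0.67 for Fos with Egr1, 0.62 for Jun with Egr1, 0.55 for Fos with Atf3 and 0.36 for Fos with Jun. For Egr1 with Atf3 and Jun with Atf3 it was 0.032 and -0.0016. Each islet batch gave 2 of these libraries, so they are not all independent, and the values carry no test.

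For each member, the gene whose log2 CPM followed it most closely over the 18 libraries was sought among 11553 genes with an average log2 CPM of at least 2. The files and the reference table do not pair the IDs with names, so these genes are given by ID. Jun was followed most closely by ENSRNOG00000022802 (Pearson r = 0.921), which stood at 72.2 ± 15.7 CPM in old replicative, 46.9 ± 15.4 in old quiescent (SD, n = 4 each), 32.1 ± 7.57 in young replicative and 27.1 ± 7.28 in young quiescent libraries (SD, n = 5 each). Fos was followed by ENSRNOG00000057367 (Pearson r = 0.888), at 160.5 ± 57.7 and 181 ± 48.6 CPM in old replicative and old quiescent libraries (SD, n = 4 each), and 86.6 ± 29.7 and 140.4 ± 30.3 CPM in young replicative and young quiescent ones (SD, n = 5 each). Both have their member's order of groups. The closest gene to Atf3 was ENSRNOG00000015632 (Pearson r = 0.883) and the closest to Egr1 was ENSRNOG00000060479 (Pearson r = 0.854). Their Spearman correlations were lower, at 0.717 and 0.645, against 0.928 for the gene closest to Jun and 0.853 for that closest to Fos. ENSRNOG00000015632 varied widely in old replicative libraries, at 54.9 ± 45.0 CPM (SD, n = 4). The Pearson values are the highest of 11553 each, over libraries that share groups and depth, and describe likeness alone.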

How the data were processed

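The authors deposited raw counts of reads, 1 row per Ensembl rat gene, for 18 libraries. The authors' second deposited table holds log2 values. These equal the log2 of the count over a median-of-ratios size factor, plus 1 (largest difference 5.15e-14). Per the submitters' processing notes, STAR, DESeq2 and rn6 were involved, in roles not stated. No source used here gives the counting program, annotation or strand setting, so reads of overlapping genes may be misassigned. No sample column was left unused.

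In R 4.3.3, edgeR 4.0.16 fitted 4 group means over all 18 libraries with TMM factors, robust dispersions and the quasi-likelihood F test. filterByExpr (minimum count 10, total 15) removed 12734 of 27654 genes. P-values were adjusted by Benjamini-Hochberg over 14920 genes, with a threshold of 0.05. SEs are the log2 fold change over the square root of F, and log2 CPM used a prior count of 2. The fit was tested on simulated data. Alternatives were RLE and upper-quartile factors, no filter, DESeq2 1.42.0, limma-voom 3.58.1 with quality weights, the 2 groups alone, a replicate block (a fixed term within age, a random one between ages, with statmod 1.5.0), and each library left out in turn. Same-numbered libraries deviated together in 9 of 9 pairs (r = 0.106 to 0.489 over genes with an average log2 CPM of at least 4), and each replicative library correlated best with its own number.

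P-values measure the spread between libraries of pooled rats. Those of the main fit take the libraries as independent, though each islet batch gave a replicating and a quiescent one. The reference table (GRCr8) matched 0 of the IDs, so the planned lists of related genes and cell type markers were not run. The member names came with the IDs. Members and lists were chosen with earlier results of these data known. Beside the 4 members, 1 gene per member was named, by the highest Pearson r.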

Additional observations from a re-analysis of the deposited data

Results flagged for a closer look

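Among 40 sets of values tested for a library far from its group (16 of CPM and 24 of count ratios), 3 were picked out, where chance picks about 5% of sets. Egr1 had 12.0 reads per Fos read in young replicative replicate 5, far above the other young replicative libraries. Atf3 had 0.146 reads per Egr1 read in young quiescent replicate 1, above the other young quiescent libraries. Atf3 had 0.0302 reads per Egr1 read in old quiescent replicate 4, below the other old quiescent libraries.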

How the results depend on the processing

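Of 136 values of single genes under settings other than leaving out a library, 120 kept their direction and side of the threshold, 3 lost a call, 11 gained one and 2 reversed. With a library left out, 344 kept both, 5 lost a call, 3 gained one and 8 reversed. The reversals were small values: Atf3 in old against young quiescent cells was 0.18 with limma-voom and ran from -0.22 to 0.14 with a library left out, Egr1 in young islets was 0.030 with the replicate block and ran from -0.27 to 0.088, and Jun in young islets ran from -0.010 to 0.30. Blocked values that changed a call of a member are in the report, and the block changed no other call of theirs.

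The number of genes called moved more, and the cause was not tested. Replicative against quiescent cells of old islets gave 2053 genes, but 540 in the 2 groups alone, 1055 with limma-voom and 3365 with DESeq2. The young comparison gave 368, but 786, 2952 and 603. Old against young quiescent cells gave 4, but 258, 1589 and 59, and 8 with no filter. Old against young replicative cells gave 1069, but 62, 231 and 2578, and 1730 with the replicate block. The interaction gave 4, but 2 with limma-voom, 383 with DESeq2, 1 with no filter and 11 with the replicate block.

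With a library left out, the old comparison ran from 1134 (old quiescent replicate 4) to 2916, the quiescent one from 0 (young quiescent replicates 2 and 3) to 14 (old replicative replicate 4), the replicative one from 644 (young replicative replicate 3) to 2211 (old replicative replicate 1) and the interaction from 0 to 231 (old replicative replicate 1). The median of all genes in the old comparison was 0.14 with RLE factors, 0.01 with TMM and -0.10 with upper-quartile factors, and in old against young replicative cells -0.20 with upper-quartile and -0.05 with TMM factors. With the replicate block and with limma-voom these medians were lower, at -0.43 and -0.33 in the old comparison and -0.44 and -0.39 in old against young replicative cells. Depth limits Atf3 most, with 8 reads in young replicative replicate 5.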
